A study of Mus musculus with 10 samples.

Results

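GKO and DKO are mouse embryonic stem cells (ESCs) recorded as lacking Gys1, the muscle isoform of glycogen synthase, and they differ in AMPKα: GKO keeps it and DKO had it targeted as well. The comparison was made on the TPM of the 2 GKO and the 2 DKO libraries, which are 4 of the 10 libraries of the series, as log2(TPM + 1) over 12060 of the 21853 listed genes, those that reached 1 TPM in 2 or more of the 10 libraries. TPM is the abundance of a gene's transcripts within a library, corrected for their length and scaled to a fixed sum, and a difference of log2(TPM + 1) understates the fold change of genes at low TPM. Differences are given as GKO minus DKO with the standard error (SE) of the limma fit, so that a positive value means a higher level in the cells that keep AMPKα. The SE pools the spread between replicates of all 5 lines of the series, not of GKO and DKO alone.

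All lines were derived from J1, a male ESC line. The GKO libraries are recorded as GYS1 KO, the DKO libraries as AMPK, GYS1 KO, the AKO libraries as AMPK KO, and the naïve libraries as WT. These lines were grown in serum with LIF and the inhibitors PD0325901 of MEK and CHIR99021 of GSK3 (2i), whereas the primed line PJ1 was kept in EpiSC medium with bFgf and Activin. Gys1 was cut in exon 9 by Cas9 and single colonies were picked. AMPKα was targeted with a commercial plasmid pair against Prkaa1, the gene of AMPKα1, and cells with the plasmid's red fluorescence were sorted, while Prkaa2, the gene of AMPKα2, was not targeted. How many clones stand behind each library is not given in the sources used here, nor whether the 2 libraries of a line came from separate cultures. The p-values therefore measure only the spread between the libraries within the 5 lines. Since GKO and DKO are also separately selected cells, the targeting of AMPKα and any other difference between the lines cannot be told apart.

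AMPK is the kinase that senses a shortage of cellular energy. Its α subunit is catalytic, its β subunit binds glycogen and its γ subunit binds AMP, and the active kinase restrains fatty acid and sterol synthesis by phosphorylating their enzymes, acetyl-CoA carboxylase among them, while it favours fatty acid oxidation, autophagy and the turnover of mitochondria. Glycogen synthase adds glucose to glycogen, and GSK3, which holds it inactive, is inhibited in 2i medium. Naïve ESCs correspond to the pre-implantation epiblast and keep a low level of DNA methylation in 2i, and primed ESCs correspond to the epiblast after implantation.

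The exon shown first is the one in which the study targeted Gys1 in both lines. In the transcript Gys1-201, which has 16 exons, exon 9 is the interval chr7:45094056-45094115 on the plus strand of GRCm39, is 60 bases long and is coding throughout. The other sequences are promoters of 4 germline genes that were higher in GKO than in DKO, as the 250 bases before the RefSeq start on GRCm38.p6, each read along its gene. Capitals mark the letters CACGTG (an E-box) and TCCCGC (an E2F-type motif, or its reverse complement GCGGGA), which were searched on both strands and do not overlap each other in these windows. The promoter of Sycp3 is chr10:88459337-88459586 (plus strand), that of Ddx4 is chr13:112652311-112652560 (minus strand), that of Tuba3a is chr6:125286082-125286331 (minus strand) and that of Tex13b is chrX:140813434-140813683 (minus strand).
Gys1 exon 9: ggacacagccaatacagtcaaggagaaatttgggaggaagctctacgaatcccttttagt
Sycp3 promoter: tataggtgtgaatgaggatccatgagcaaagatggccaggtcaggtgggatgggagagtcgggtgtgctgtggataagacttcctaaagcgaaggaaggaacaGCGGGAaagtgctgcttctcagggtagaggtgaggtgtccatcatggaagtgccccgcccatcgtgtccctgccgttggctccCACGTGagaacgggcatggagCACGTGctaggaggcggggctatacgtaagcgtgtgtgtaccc
Ddx4 promoter: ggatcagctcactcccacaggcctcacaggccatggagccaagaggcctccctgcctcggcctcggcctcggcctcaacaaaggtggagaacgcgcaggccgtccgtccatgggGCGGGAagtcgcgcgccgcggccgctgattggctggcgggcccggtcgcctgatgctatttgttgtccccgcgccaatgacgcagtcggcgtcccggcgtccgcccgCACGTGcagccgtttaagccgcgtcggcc
Tuba3a promoter: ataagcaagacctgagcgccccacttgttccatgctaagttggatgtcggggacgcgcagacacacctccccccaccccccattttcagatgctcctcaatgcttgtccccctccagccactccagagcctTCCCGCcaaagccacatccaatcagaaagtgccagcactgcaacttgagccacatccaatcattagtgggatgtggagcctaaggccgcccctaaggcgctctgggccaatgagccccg
Tex13b promoter: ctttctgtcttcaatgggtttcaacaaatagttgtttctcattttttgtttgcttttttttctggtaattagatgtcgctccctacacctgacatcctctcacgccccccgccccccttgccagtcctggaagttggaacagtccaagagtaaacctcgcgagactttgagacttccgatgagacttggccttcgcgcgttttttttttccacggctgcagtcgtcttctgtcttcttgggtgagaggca

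The listed TPM summed to 500162 to 578952 per library, since the list is limited to protein-coding genes, and the depth of the libraries is unknown. GKO and DKO libraries held 10715 to 10832 genes at 1 TPM or more. The GKO replicates differed from each other by a median absolute 0.0651 on the log2 scale, and the DKO replicates by 0.0704. The primed replicates differed by 0.127, and their spread enters the pooled SE. Y-linked genes set the lines apart before any result: their summed TPM was 0 in the naïve, AKO and primed libraries, 67.84 and 65.18 in DKO and 55.00 and 50.98 in GKO. The cells behind GKO and DKO therefore differed from the sequenced naïve and AKO cells in Y-linked transcripts as well as in Gys1.

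At the threshold of an adjusted p of 0.05 in limma, 5252 of the 12060 tested genes differed between GKO and DKO, which is 43.5%. Of these, 2554 were higher in GKO (21.2% of tested genes) and 2698 were lower (22.4%). The differences were mostly small, with a median absolute value of 0.196 and a median of -0.01 on the log2 scale. A difference of at least 1 together with the threshold was reached by 323 genes (2.68%), 175 higher and 148 lower in GKO (1.45% and 1.23%). Naïve against AKO, in which AMPKα was targeted with Gys1 intact, gave 27 called genes (0.224%) and a median absolute difference of 0.0673. The libraries of GKO and DKO did not overlap for 76.7% of the tested genes. With so many genes called between GKO and DKO, a gene list is read below against these shares.

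**Figure D1:**
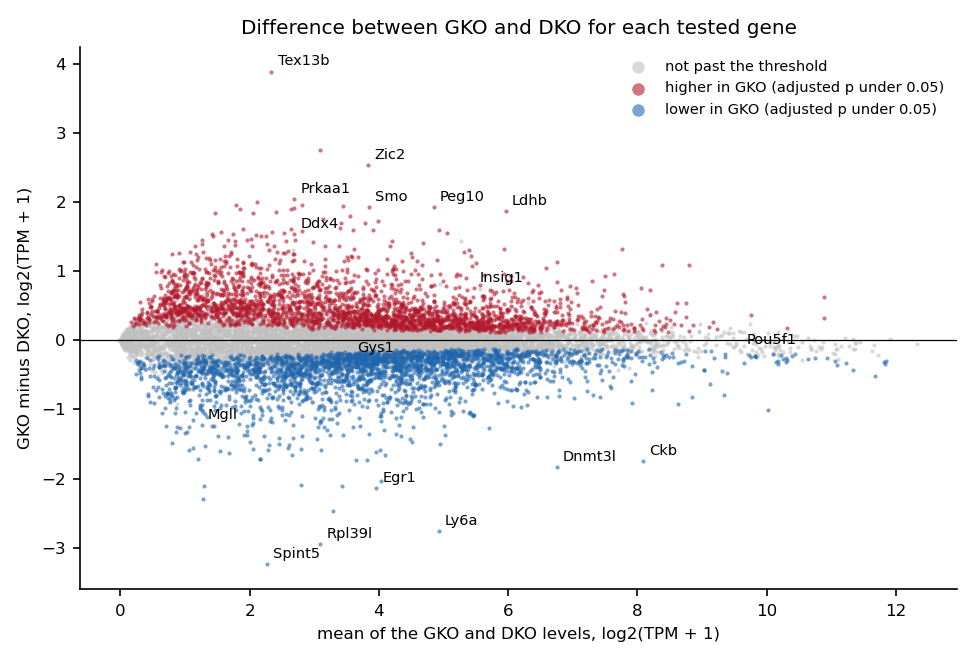
Difference between GKO and DKO (vertical axis, log2(TPM + 1)) against the mean level of the gene in both lines (horizontal axis, log2(TPM + 1)), 1 point for each of the 12060 tested genes, red where higher in GKO and blue where lower at an adjusted p under 0.05. Most called genes lie close to 0, with Tex13b at 3.89 and Spint5 at -3.24 at the ends of the range.

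The targeted genes were examined first. Prkaa1 was at 12.2 and 11.96 TPM in GKO and at 2.30 and 2.04 TPM in DKO, with no overlap, and the difference was 2.04 ± 0.07 (SE; limma adjusted p = 9.2e-07). The AKO libraries held more of it than DKO, 7.24 and 6.94 TPM, against 15.5 and 16.6 TPM in naïve ESCs. Reduced but remaining Prkaa1 mRNA does not measure the protein.

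Prkaa2, which encodes the other catalytic subunit, was at 3.27 and 3.29 TPM in GKO and at 3.29 and 3.10 TPM in DKO, and these overlapped (difference 0.03 ± 0.08, limma adjusted p = 0.80). Gys1 mRNA was present in both lines, at 9.70 and 9.98 TPM in GKO and 12.1 and 11.7 TPM in DKO, beside 11.5 and 10.8 TPM in naïve ESCs. Its difference of -0.25 ± 0.06 passed the threshold (limma adjusted p = 0.0087), but not without GKO replicate 1 or without DKO replicate 1 (adjusted p = 0.0559 and 0.0523). A gene cut by Cas9 can go on being transcribed, so its TPM does not check the loss of the protein.

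Among the 15 tested genes of AMPK subunits and upstream kinases, 7 were higher in GKO and 3 lower. These are 46.7% and 20.0%, beside 21.2% and 22.4% of all tested genes, and the 7 include the targeted Prkaa1. Prkag2, a γ subunit, was at 6.19 and 6.30 TPM in GKO and 2.71 and 3.17 TPM in DKO, a difference of 0.88 ± 0.11 (limma adjusted p = 0.00035). Prkab2, the β2 subunit, went the other way, at 5.35 and 5.25 TPM in GKO against 7.79 and 7.82 TPM in DKO (-0.48 ± 0.09, limma adjusted p = 0.0028). DKO was thus the line with less γ2 and more β2 mRNA. Naïve ESCs held 2.45 and 2.37 TPM of Prkag2, nearer to DKO, and 5.54 and 5.62 TPM of Prkab2, nearer to GKO. The β1 and γ1 subunits, Prkab1 and Prkag1, did not pass (0.12 and 0.08). Camkk2, the calcium-dependent kinase upstream of AMPK, was 0.37 higher in GKO, and Stk11, which encodes the upstream kinase LKB1, was lower (-0.15). The count of higher members fell to 4 without GKO replicate 2 or without DKO replicate 2, and that of lower members to 1 without either GKO library or without DKO replicate 2.

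Of 28 tested genes whose proteins AMPK phosphorylates, 8 were higher and 4 lower in GKO, with a median of 0.07. These are 28.6% and 14.3%, beside 21.2% and 22.4% of all tested genes. Tbc1d4, which governs glucose transporter traffic, was 0.44 higher and Mff, the mitochondrial fission factor, 0.34 higher in GKO. Pfkfb2, which sets the level of an activator of glycolysis, was lower (-0.48). Ulk1, Rptor, Becn1 and Crtc2 lay between -0.01 and 0.08 and did not pass. Acetyl-CoA carboxylase 1 (Acaca) was at 21.9 and 21.8 TPM in GKO and 20.4 and 18.2 TPM in DKO (0.17 ± 0.08, limma adjusted p = 0.13), while the mitochondrial isoform Acacb was at 6.32 and 6.58 against 4.54 and 4.79 TPM (0.40 ± 0.14, adjusted p = 0.043). The Acacb call was lost whenever any 1 of the 4 libraries was left out (adjusted p 0.112 to 0.159), and the 8 higher substrates became 3 without GKO replicate 1 or DKO replicate 1 and 5 without GKO replicate 2 or DKO replicate 2. Without GKO replicate 1 or DKO replicate 1 the lower members were 2.

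Cholesterol synthesis was the list with the highest share of higher members among the metabolic lists. Of its 25 genes, all tested, 14 were higher in GKO (56.0%, beside 21.2% of all tested genes), 1 was lower and the median was 0.30. The list summed to 1157 and 1172 TPM in the GKO libraries and to 944.7 and 957.1 TPM in those of DKO, with the naïve libraries at 1112 and 1104. No member reached a difference of 1.

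Insig1, the endoplasmic reticulum protein that retains the sterol sensor SCAP, differed most. It was at 57.2 and 56.0 TPM in GKO and at 32.2 and 33.7 TPM in DKO, a difference of 0.76 ± 0.05 (limma adjusted p = 1.2e-05). The naïve libraries (56.5 and 54.3 TPM) and the AKO libraries (55.0 and 57.2 TPM) were at the GKO level, so that DKO alone was low among the lines in 2i. Srebf2, the transcription factor of the pathway, was at 66.5 and 65.9 against 52.8 and 54.4 TPM (0.30 ± 0.04, limma adjusted p = 0.00038), again without overlap.

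Further higher members lay along the pathway, from Fdps, which makes farnesyl pyrophosphate (0.51), through Cyp51 (0.53), Msmo1 (0.48) and Sc5d (0.50) of the later sterol steps to Dhcr7 at its end (0.47), with the sterol carrier Stard4 at 0.49. The early enzyme Hmgcs1 (0.09) did not pass, nor did Sqle (0.01), whose step lies between those of Fdps and Cyp51. Tm7sf2, a sterol reductase on chromosome 19, was the lower member (-0.48). The median of these 25 genes between naïve ESCs and AKO was -0.00.

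Fatty acid oxidation and lipid droplets moved to the opposite side. Of 29 tested members, 0 were higher in GKO and 17 lower (58.6%, beside 22.4% of all tested genes), and the median was -0.32. Their summed TPM was 538.7 and 543.3 in GKO, 715.1 and 723.7 in DKO and 615.3 and 606.4 in naïve ESCs, so the naïve libraries fell between the lines. The 17 lower members were counted as 13 to 20 under the alternatives, and 1 member was higher once the trend on length and GC content was taken out.

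Acadm, the medium-chain acyl-CoA dehydrogenase, was at 42.9 and 42.4 TPM in GKO and 61.1 and 66.1 TPM in DKO (-0.56 ± 0.05, limma adjusted p = 5.7e-05). Slc25a20, which carries acylcarnitines into mitochondria, was at 35.1 and 34.9 against 55.8 and 53.3 TPM (-0.63 ± 0.05, limma adjusted p = 4.7e-05). Cpt1a, the rate-limiting step of entry, was at 16.6 and 16.3 against 21.3 and 20.6 TPM (-0.33 ± 0.06, limma adjusted p = 0.0021). In all of these the GKO libraries lay below both DKO libraries and below both naïve libraries.

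For a further group the naïve level was near GKO and DKO stood above both. Acad9, an acyl-CoA dehydrogenase that also assembles respiratory complex I, was at 20.4 and 17.9 TPM in GKO, 35.8 and 38.4 TPM in DKO, with 17.0 and 16.6 TPM in naïve ESCs (GKO minus DKO -0.92 ± 0.08, limma adjusted p = 4.9e-05). Cpt1c, the neuronal carnitine palmitoyltransferase isoform, followed the same order (-0.86), as did Mgll, the monoacylglycerol lipase, at 0.576 and 0.549 TPM against 2.72 and 2.62 TPM (-1.23 ± 0.09). The lipid droplet coat gene Plin3 (-0.80), the very-long-chain and short-chain dehydrogenases Acadvl (-0.75) and Acads (-0.52), the electron transfer flavoprotein subunit Etfb (-0.72) and the trifunctional protein subunit Hadha (-0.33) were lower in GKO too. Cpt2 (0.02) and the lipase Pnpla2 (-0.01) did not pass, and Ppara and Ppargc1a, the regulators of the pathway, stayed below 0.2 TPM in GKO, DKO and naïve ESCs and were not tested.

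**Figure D2:**
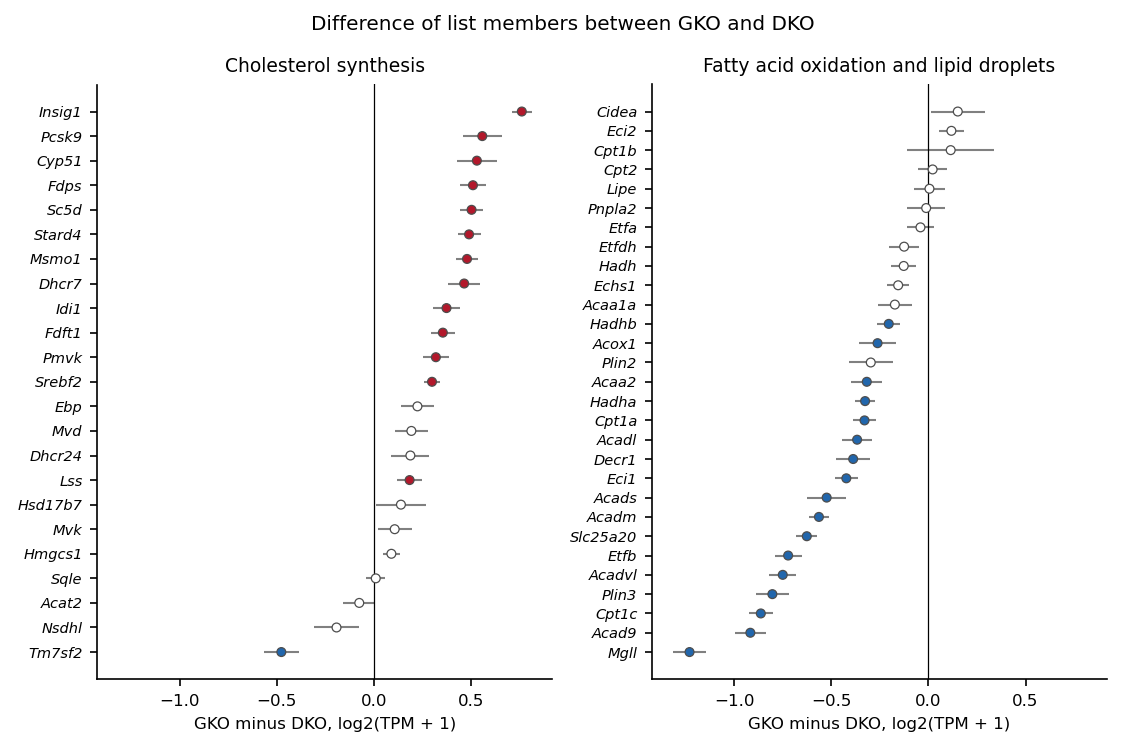
Difference between GKO and DKO (horizontal axis, log2(TPM + 1)) of tested members of the cholesterol synthesis list (left, 23 of the 25 genes) and of the fatty acid oxidation and lipid droplet list (right, all 29 genes), with bars of 1 SE of the limma fit; red points were higher and blue points lower in GKO at an adjusted p under 0.05, white points did not pass. The called members lie to the right of 0 on the left except Tm7sf2 (-0.48), and all to the left of 0 on the right.

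Fatty acid synthesis was split, with 11 of 25 tested members higher in GKO (44.0%) and 6 lower (24.0%). Dgat2, which makes triacylglycerol, was at 5.75 and 4.76 TPM in GKO and 1.85 and 1.96 TPM in DKO (1.10 ± 0.12, limma adjusted p = 0.00019). Scd2, the stearoyl-CoA desaturase of the highest level here, was at 262 and 281 against 185 and 182 TPM (0.56 ± 0.06, limma adjusted p = 9.9e-05). Its paralog Scd1 had a larger difference at a wider error, 59.1 and 62.2 against 34.7 and 36.6 TPM (0.75 ± 0.29, limma adjusted p = 0.068). This error is pooled over all 5 lines, while the GKO and the DKO libraries were each close to one another.

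The acyl-CoA synthetases Acsl4 (0.69, X-linked) and Acsl3 (0.63), the desaturase Fads2 (0.51) and the malic enzyme Me1, a source of NADPH (0.44), were also higher in GKO. On the lower side were Acss2, which makes acetyl-CoA from acetate, at 2.37 and 2.61 TPM in GKO and 5.33 and 6.30 TPM in DKO (-0.96 ± 0.09, limma adjusted p = 8.0e-05), and the elongases Elovl1 (-0.57) and Elovl6 (-0.42). The fatty acid synthase Fasn (132 and 131 against 112 and 117 TPM) and the factor Srebf1 (34.8 and 32.5 against 25.9 and 30.3 TPM) were higher in both GKO libraries but did not pass the threshold (limma adjusted p = 0.125 and 0.142).

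In glycogen metabolism 6 of 19 tested members were higher and 3 lower in GKO, with a median of -0.01. Gyg, glycogenin, which primes the glycogen particle, was at 8.35 and 8.60 TPM in GKO and 4.00 and 3.64 TPM in DKO (0.97 ± 0.09, limma adjusted p = 6.2e-05), and naïve ESCs at 5.60 and 4.58 TPM lay nearer to DKO. Pgm1, which links glucose 1-phosphate with glucose 6-phosphate, was at 4.54 and 4.70 against 2.64 and 2.54 TPM (0.65), and Phka1, an X-linked subunit of phosphorylase kinase, was 0.69 higher. Gaa, the lysosomal enzyme that degrades glycogen, was at 22.3 and 21.5 TPM in GKO and 36.8 and 39.8 TPM in DKO (-0.78 ± 0.08, limma adjusted p = 9.2e-05), and the naïve libraries, at 20.2 and 18.8 TPM, were at the GKO level. The branching enzyme Gbe1 (-0.00) and the phosphorylase Pygb (0.13) did not pass. With a filter at a mean of 5 TPM, 3 of the 10 members still tested were higher.

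Glucose uptake and glycolysis were split between 7 higher and 9 lower of 29 tested members. Among the glycolytic enzymes, Eno1 was at 497 and 489 TPM in GKO and 827 and 888 TPM in DKO (-0.80 ± 0.05, limma adjusted p = 1.2e-05), Tpi1 at 85.6 and 108 against 170 and 173 TPM (-0.83 ± 0.13, adjusted p = 0.0013) and Pfkm at 7.98 and 7.84 against 15.0 and 13.9 TPM (-0.80 ± 0.06, adjusted p = 1.8e-05). Pgam1 (-0.36), Gapdh (-0.31), Pkm (-0.26) and Aldoc (-0.86) were lower in GKO as well. Ldhb, the lactate dehydrogenase subunit of oxidative tissues, which lies on chromosome 6, was higher, at 111 and 126 against 33.9 and 29.4 TPM (1.87 ± 0.09, limma adjusted p = 4.1e-06). The pyruvate dehydrogenase kinase Pdk3 (1.27) and Pfkfb1 (0.87), both X-linked, were higher in GKO, and the glucose transporters Slc2a1 (0.22) and Slc2a3 (-0.06), Hk2 (0.15) and Ldha (-0.10) did not pass. A fit without the primed libraries, or of the 4 libraries alone, raised the higher members to 11.

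Mitochondrial biogenesis and dynamics gave 4 higher and 5 lower members of 24 (16.7% and 20.8%), near the 21.2% and 22.4% of all tested genes. Pink1, the kinase that marks damaged mitochondria, was at 6.87 and 8.35 TPM in GKO and 3.45 and 3.96 TPM in DKO (0.87 ± 0.11, limma adjusted p = 0.00036). The lower members were 2 without GKO replicate 2 or DKO replicate 1, and 3 without DKO replicate 2.

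Of 43 lysosome and autophagy genes 13 were lower in GKO (30.2%, beside 22.4% of all tested genes), 3 were higher and 27 did not pass, with a median of -0.10. Among its lower members were lysosomal hydrolases: Hexa was at 10.98 and 9.77 TPM in GKO and 22.3 and 23.0 TPM in DKO (-1.06 ± 0.14, limma adjusted p = 0.00036), Ctsa at 25.6 and 28.1 against 48.9 and 52.5 TPM (-0.89 ± 0.06, adjusted p = 2.0e-05) and Tpp1 at 17.1 and 16.6 against 29.1 and 29.0 TPM (-0.75 ± 0.07, adjusted p = 8.8e-05). Tfeb, the factor that drives these genes and is held in check when nutrients are plentiful, was on the other side, at 36.5 and 32.2 against 21.6 and 24.1 TPM (0.57 ± 0.11, adjusted p = 0.0036). The membrane protein Lamp1 (-0.14) and the autophagy receptor Sqstm1 (0.11) did not pass.

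**Figure D3:**
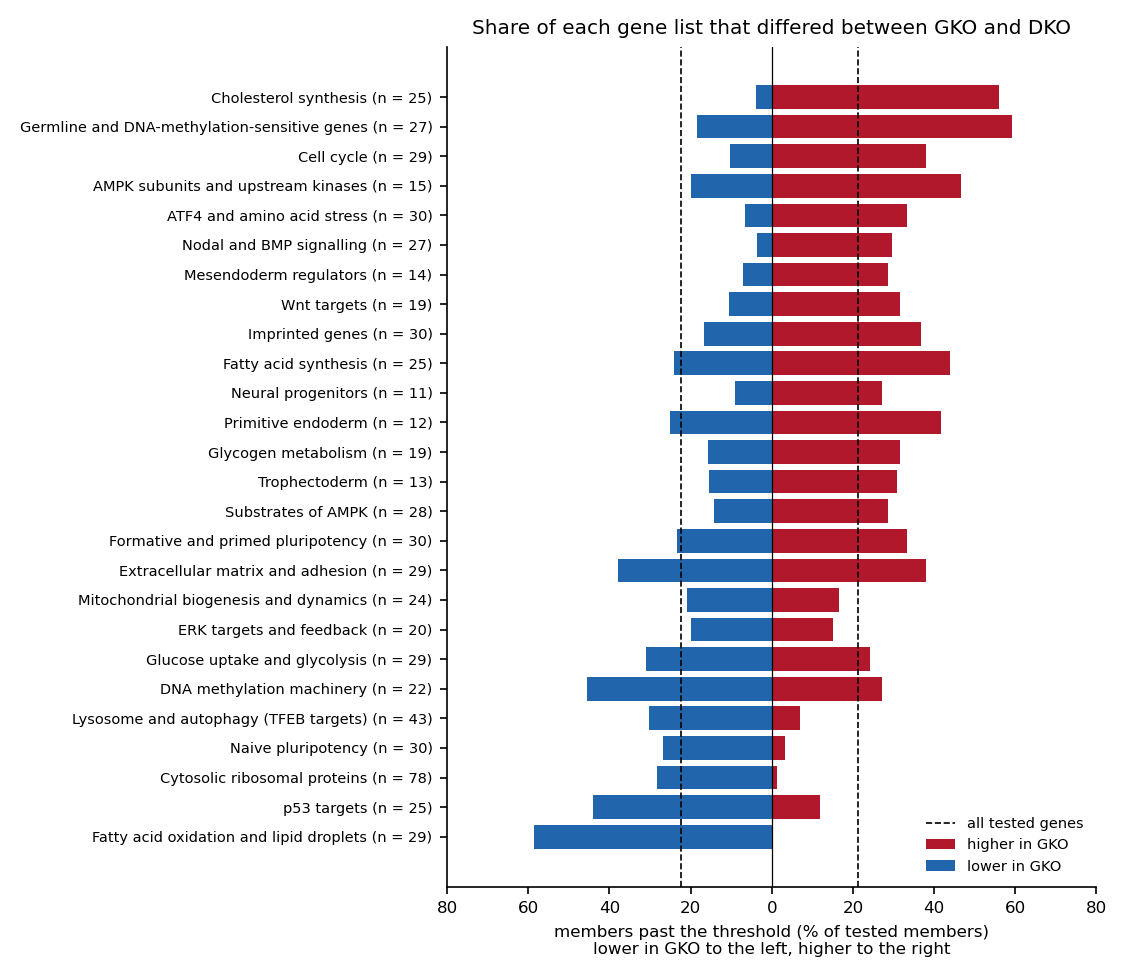
Share of the tested members of each gene list that were higher (red, to the right) or lower (blue, to the left) in GKO than in DKO at an adjusted p under 0.05, in percent, for the lists with at least 10 tested members (n beside each name); dashed lines mark the shares of all tested genes, 21.2% higher and 22.4% lower. Germline genes (59.3%) and cholesterol synthesis (56.0%) have the longest bars on the right, and fatty acid oxidation and lipid droplets (58.6%) the longest on the left.

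Both lines carried the markers of naïve ESCs. The summed TPM of 30 naïve pluripotency genes came to 5547 and 5783 for GKO and to 5906 and 6159 for DKO, beside 859.6 and 810.1 in primed ESCs. Of the 30, 1 was higher in GKO and 8 lower (3.33% and 26.7%), with a median of -0.04. The core factors did not pass: Pou5f1 was at 704 and 764 TPM in GKO and 776 and 838 TPM in DKO (-0.14 ± 0.09, limma adjusted p = 0.23), and Nanog at 450 and 494 against 521 and 500 TPM (-0.11 ± 0.06, adjusted p = 0.17) with the GKO libraries below both DKO libraries for each. Esrrb (-0.04), Sox2 (-0.03), Zfp42 (0.07), Klf4 (0.03) and Nr0b1 (0.05) were close to 0, and Klf2 was at 282 and 331 against 264 and 251 TPM (0.25 ± 0.12, adjusted p = 0.12).

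The lower members included Tcl1, a cofactor of Akt, at 41.6 and 42.3 TPM in GKO and 63.6 and 68.6 TPM in DKO (-0.64 ± 0.06, limma adjusted p = 6.2e-05), Lifr, the receptor of LIF (-0.43), Tet2, a methylcytosine oxidase (-0.37), and Dppa3 at 2.44 and 2.53 against 4.12 and 5.79 TPM (-0.76). Prdm14, which represses the de novo methyltransferases, was the higher member, at 18.6 and 16.6 against 13.3 and 14.2 TPM (0.34 ± 0.07, limma adjusted p = 0.0059). The 8 lower members were 5 without GKO replicate 2 or DKO replicate 2 and 4 with a pseudocount of 0.1, and the higher one was lost without GKO replicate 1.

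Of 30 tested formative and primed genes, 10 were higher and 7 lower in GKO (33.3% and 23.3%, beside 21.2% and 22.4% of all tested genes). Zic2, a transcription factor of the post-implantation epiblast, was at 33.7 and 33.2 TPM in GKO, 4.48 and 5.37 TPM in DKO, with 14.4 and 13.7 TPM in naïve ESCs, so that the naïve libraries lay between the lines (GKO minus DKO 2.54 ± 0.11, limma adjusted p = 2.5e-06). Its neighbour Zic5 was at 9.99 and 9.57 against 3.14 and 2.76 TPM (1.45 ± 0.12, adjusted p = 4.2e-05). Otx2, which directs the exit from the naïve state, was at 5.28 and 6.09 TPM in GKO, 2.39 and 2.98 TPM in DKO, with 5.71 and 6.10 TPM in naïve ESCs (0.86 ± 0.09, adjusted p = 0.00015).

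Zic2, Zic5 and Otx2 all lie on chromosome 14, whose genes were shifted up by 0.12 in GKO against DKO, and the part of that shift in their difference was not tested. The list kept 6 higher members, of 22 tested, without the chromosomes shifted by over 0.1, on which 4 of the 10 higher members lie. Nkx1-2 was at 34.9 and 37.1 against 17.0 and 15.8 TPM (1.09 ± 0.31, limma adjusted p = 0.020), a call that was lost without any 1 of the 4 libraries, and Sox4 was 0.83 higher. The largest fall of the list was in Dnmt3l (-1.83), given below with DNA methylation, and Foxd3 (-0.80) and Sox11 (-0.61) were lower too. A difference of at least 1 was reached by 3 of the higher and 2 of the lower members. Fgf5, the usual mark of primed cells, stayed at 0 to 0.138 TPM in GKO and DKO and was not tested.

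Markers of other cell types did not go one way. Among mesendoderm regulators 4 of 14 were higher and 1 lower: Cdx1 was at 63.6 and 66.5 TPM in GKO and 25.5 and 25.6 TPM in DKO (1.31 ± 0.09, limma adjusted p = 1.9e-05), Axin2 was 0.52 higher and T (brachyury) was at 19.1 and 17.5 against 4.94 and 4.88 TPM (1.71 ± 0.60, adjusted p = 0.046). The call of T was lost without any 1 of the 4 libraries (adjusted p 0.128 to 0.157), and each of these left 2 higher members. The SE of T takes in the primed libraries, which lay far apart (8.97 and 0.786 TPM). Eomes (0.08) did not pass, and Cer1 was listed at 0 in GKO and DKO.

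Among 12 tested primitive endoderm genes 5 were higher and 3 lower, with the largest rise in Col4a1 (4.96 and 5.15 against 1.74 and 1.84 TPM, 1.12). The largest fall was in Fst, an inhibitor of Activin, at 3.38 and 2.77 against 6.83 and 7.08 TPM (-0.97 ± 0.13, limma adjusted p = 0.00042). Sparc was lower too (80.7 and 80.2 against 122 and 120 TPM, -0.59), while the defining factor Sox17 stayed under 0.2 TPM. Without GKO replicate 1, GKO replicate 2 or DKO replicate 2, 3 were higher. Among 13 trophectoderm genes 4 were higher and 2 lower: Tfap2c was at 23.1 and 24.3 against 6.57 and 6.71 TPM (1.69 ± 0.33, limma adjusted p = 0.0032), its relative Tfap2a at 4.77 and 4.64 against 12.6 and 11.1 TPM (-1.17 ± 0.12, adjusted p = 9.5e-05), and the defining factor Cdx2 at 6.62 and 7.27 against 6.73 and 6.86 TPM, with overlap. The higher trophectoderm members were 2 without GKO replicate 1 or without either DKO library, and the lower 1 without DKO replicate 1. Of 8 fibroblast genes 3 were higher, among them Thy1 (7.14 and 8.48 against 1.88 and 2.04 TPM, 1.57), and 3 lower, among them Vim (152 and 152 against 230 and 260 TPM, -0.68). Of 11 neural progenitor genes 3 were higher, with Nes at 5.95 and 6.18 against 3.63 and 3.30 TPM (0.66), and 1 lower, a call lost without either GKO library or without DKO replicate 1. In bulk RNA a change in the share of some cells and a change of level in all cells cannot be told apart.

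The next list marks 2-cell-like cells, a rare state within ESC cultures. Of its 28 symbols 26 were listed and 4 were tested, of which 3 were lower and 0 higher in GKO. Among the 3 were Eif1a (158 and 158 against 182 and 190 TPM, -0.23) and Eif1ad (33.3 and 32.5 against 35.5 and 38.8 TPM, -0.17). Both were well expressed in every library of the series, so their level does not single out a rare state. The Eif1ad call was lost with quantile normalization. The other 22 were too low to test, and 18 of these had both GKO libraries below both DKO libraries and 0 had them above. Of the 9780 genes of the series that were not tested, 10.4% had the GKO libraries below and 10.7% above, and of the 4830 of these that were above 0 in GKO or DKO, 21.2% had them below. The summed TPM of the 22 genes was 0.565 and 0.702 in GKO, 5.54 and 4.51 in DKO and 2.38 and 2.47 in naïve ESCs. They belong to multicopy families (Zscan4 and others) between which RSEM divides reads by estimation, so the sum is firmer than any member. With no filter on low values, 16 members were called lower.

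The germline list, genes silenced by DNA methylation in somatic cells, had the largest share of higher members of all lists with at least 10 tested members. Of 27 tested members 16 were higher in GKO (59.3%) and 5 lower (18.5%), with a median of 0.43. Ddx4, the germ cell RNA helicase, was at 10.4 and 9.53 TPM in GKO, 3.00 and 2.57 TPM in DKO, with 2.68 and 2.17 TPM in naïve ESCs (GKO minus DKO 1.54 ± 0.10, limma adjusted p = 1.2e-05). Sycp3, of the meiotic chromosome axis, was at 6.38 and 6.23 against 1.46 and 1.59 TPM (1.53 ± 0.10, adjusted p = 1.2e-05), and Piwil2, of the piRNA pathway, at 7.11 and 7.58 against 2.94 and 2.48 TPM (1.17 ± 0.19, adjusted p = 0.0012).

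Tuba3a, a testis α-tubulin on chromosome 6, was at 20.3 and 19.9 TPM in GKO and 5.65 and 6.33 TPM in DKO (1.60 ± 0.09, limma adjusted p = 7.4e-06). The X-linked Tex13b had the largest rise of all genes, from 0.179 and 0.449 TPM in DKO to 17.8 and 19.1 TPM in GKO (3.89 ± 0.12, adjusted p = 5.6e-07), and it stayed under 1 TPM in naïve ESCs and AKO. Stra8, which starts meiosis, was at 1.36 and 2.15 against 0.388 and 0.287 TPM (1.03 ± 0.12, adjusted p = 0.00027).

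The list did not move as a block. Rpl39l, a ribosomal protein of male germ cells, had the second largest fall of all genes, at 1.72 and 2.42 TPM in GKO, 23.4 and 21.7 TPM in DKO, with 51.0 and 53.4 TPM in naïve ESCs (-2.95 ± 0.10, limma adjusted p = 9.2e-07). The X-linked Magea4 (-0.80), Xlr3a (-0.31) and Xlr3b (-0.47) were lower in GKO than in DKO, and Magea4 was at 0 and 0.046 TPM in GKO, 0.898 and 0.665 TPM in DKO, with 9.62 and 9.43 TPM in naïve ESCs. Dazl was alike in both lines within the error, at 3.28 and 3.38 against 3.30 and 3.42 TPM (-0.01 ± 0.07, adjusted p = 0.93). Of the 16 higher members 4 lie on chromosome 6 and 4 on the X chromosome. The naïve level was nearer to DKO for 9 of the 16 and nearer to GKO for 7. Many members are low, and with a filter at a mean of 5 TPM, which leaves low members untested, 2 were higher and 2 lower. Without GKO replicate 2 the lower members were 3.

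In the promoters shown above, Sycp3 holds CACGTG with its first base 64 and 43 bases before the start and TCCCGC on the other strand at 147, Ddx4 holds CACGTG at 29 and TCCCGC on the other strand at 136, Tuba3a holds TCCCGC at 119, and Tex13b holds neither. Of the 16 higher germline genes, 14 matched a RefSeq promoter by symbol, of which 7 (50%) held CACGTG, 6 (42.9%) TCCCGC and 4 (28.6%) both. Among all 27025 promoters of this length the shares were 6.05%, 16.9% and 1.47%, and among the 9504 tested genes with a promoter 8.74%, 31.8% and 2.93%. Of all 25 tested germline genes with a promoter, 9 (36%) held CACGTG, 7 (28%) TCCCGC and 4 (16%) both. Of the 5 lower germline genes 1 held CACGTG and 0 held TCCCGC. In the cholesterol list 3 of 17 matched genes held CACGTG (17.6%) and 7 held TCCCGC (41.2%).

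The genes that write, erase and read DNA methylation differed widely, with 6 of 22 higher and 10 lower in GKO (27.3% and 45.5%). Dnmt3l, the cofactor of de novo methylation, was at 59.2 and 53.2 TPM in GKO and 198 and 207 TPM in DKO, while the naïve libraries were at 208 and 211 TPM, so that GKO alone was low among the naïve, GKO and DKO lines (-1.83 ± 0.07, limma adjusted p = 9.6e-07). Dnmt3a was at 17.8 and 17.8 TPM in GKO and 9.40 and 9.27 TPM in DKO, with the naïve libraries at 14.8 and 16.3 TPM (0.86 ± 0.07, adjusted p = 4.1e-05). Dnmt3b was at 28.3 and 27.6 against 41.0 and 41.3 TPM (-0.54 ± 0.06, adjusted p = 0.00022). The active de novo enzymes thus differed in opposite directions, and their cofactor had the larger difference.

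The maintenance enzyme Dnmt1 (-0.18) and its partner Uhrf1 (-0.24) were slightly lower in GKO, and so was Zfp57, which keeps imprints methylated, at 152 and 151 against 230 and 252 TPM (-0.66 ± 0.07, limma adjusted p = 0.00017). The demethylation genes Tdg (0.65) and Tet3 (0.59) were higher and Tet1 (0.05) did not pass. Of the 6 higher members, 4 lie on chromosomes shifted by over 0.1. Without GKO replicate 2 or DKO replicate 2 the lower members were 6, and 2 members were higher without the chromosomes shifted by over 0.1.

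Among 30 imprinted genes 11 were higher in GKO and 5 lower. Peg10, a paternally expressed gene of retrotransposon origin, was at 58.4 and 52.5 TPM in GKO and 13.7 and 13.8 TPM in DKO (1.93 ± 0.16, limma adjusted p = 3.5e-05). Sgce (1.36 and 1.51 against 0.423 and 0.331 TPM, 0.82) and Ppp1r9a (5.23 and 5.08 against 2.81 and 2.80 TPM, 0.69), from the same cluster on chromosome 6, were higher with it. Cdkn1c, a maternally expressed inhibitor of the cell cycle, was at 6.66 and 7.10 against 0.999 and 1.41 TPM (1.84 ± 0.16, adjusted p = 4.6e-05). Mcts2 (-0.65) and Cd81 (-0.57) were lower. Of the 11 higher members, 4 lie on chromosomes shifted by over 0.1. The higher members were 7 without the chromosomes shifted by over 0.1, and the lower members 3 without GKO replicate 1 or DKO replicate 2.

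**Figure D4:**
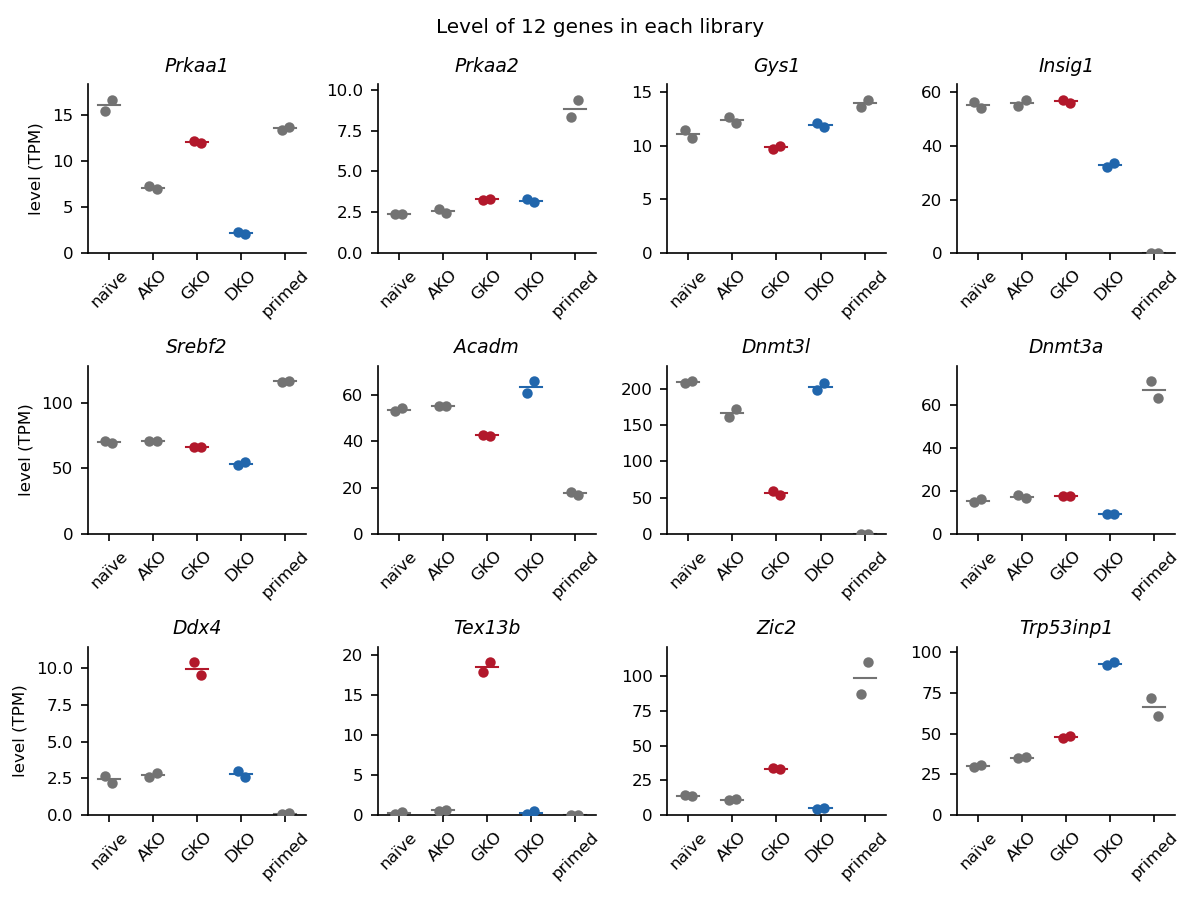
Level (TPM, linear axis from 0) of 12 genes in each of the 10 libraries, points for libraries and lines for the mean of the 2 libraries of a line, GKO in red, DKO in blue and the other lines in grey. Prkaa1 is lowest in DKO; Insig1 and Dnmt3a are low in DKO beside naïve, AKO and GKO, Dnmt3l is low in GKO, and Ddx4 and Tex13b are high in GKO alone.

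Of 25 tested targets of p53, 11 were lower in GKO (44.0%, beside 22.4% of all tested genes), 3 were higher and 11 did not pass, with a median of -0.32. Trp53inp1 was at 47.3 and 48.3 TPM in GKO and 91.8 and 94.0 TPM in DKO (-0.94 ± 0.07, limma adjusted p = 2.0e-05), Plk2 at 7.70 and 8.02 against 24.0 and 28.3 TPM (-1.61 ± 0.28, adjusted p = 0.0020), and Mdm2, the ligase that degrades p53, at 35.5 and 34.9 against 53.1 and 57.7 TPM (-0.64 ± 0.10, adjusted p = 0.00092). Trp53 itself (-0.05) and Cdkn1a (-0.20) did not pass. For 10 of the 11 lower members the naïve level was nearer to GKO, so that DKO stood apart. Gadd45a, on chromosome 6, was higher in GKO, at 28.7 and 22.1 against 12.4 and 12.9 TPM (0.94).

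Of 20 ERK targets, all measured with MEK inhibited, 3 were higher and 4 lower in GKO. Egr1 was at 8.93 and 4.24 TPM in GKO and 31.9 and 29.8 TPM in DKO (-2.14 ± 0.36, limma adjusted p = 0.0016). AKO was higher still, at 88.2 and 81.8 TPM, beside 39.2 and 22.1 TPM in naïve ESCs, and DKO lay between the naïve libraries. Fos was at 1.76 and 1.70 TPM in GKO and 5.06 and 5.50 TPM in DKO (-1.20 ± 0.39, adjusted p = 0.035), with AKO at 7.51 and 7.48 TPM and naïve ESCs at 2.80 and 1.58 TPM. The call of Fos was lost without any 1 of the 4 libraries (adjusted p 0.104 to 0.135) and with no filter on low values (adjusted p = 0.0818). The naïve against AKO difference passed for neither (adjusted p = 0.17 and 0.23). Dusp6 (-0.05), Spry4 (-0.29) and Etv5 (-0.19), the feedback genes, did not pass. Without GKO replicate 1 or DKO replicate 1 the lower members were 1, without GKO replicate 2 or DKO replicate 2 they were 2, and the higher members were 1 without GKO replicate 1 or either DKO library.

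Of 19 Wnt targets, measured with GSK3 inhibited, 6 were higher (31.6%, beside 21.2% of all tested genes) and 2 lower (10.5%, beside 22.4%). The higher members included Cdx1 (1.31) and T (1.71), given above, of which T lost its call without any 1 of the 4 libraries. The 2 lower members follow. Apcdd1 was at 5.47 and 6.03 TPM in GKO and 13.7 and 15.2 TPM in DKO (-1.19 ± 0.17, limma adjusted p = 0.00069), and Tcf7l1, the repressor of the naïve network, at 27.5 and 26.1 against 54.9 and 55.8 TPM (-1.02 ± 0.06, adjusted p = 9.9e-06). Of 27 Nodal and BMP genes 8 were higher and 1 lower (29.6% and 3.7%, beside 21.2% and 22.4% of all tested genes). Id1, a BMP target, was at 27.4 and 31.1 against 9.11 and 11.2 TPM (1.44 ± 0.18, limma adjusted p = 0.00030). Smad3 was at 8.05 and 7.27 against 3.87 and 3.58 TPM (0.87 ± 0.08, adjusted p = 7.6e-05), while Id3 (-0.06), Nodal (-0.26) and Lefty1 (-0.25) did not pass. The lower member, Id2 (-0.65), lost its call without GKO replicate 1 or DKO replicate 2.

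The ATF4 and amino acid stress list had 10 of 30 members higher and 2 lower (33.3% and 6.67%, beside 21.2% and 22.4% of all tested genes). Gars, a tRNA synthetase, was at 234 and 226 TPM in GKO and 142 and 133 TPM in DKO (0.74 ± 0.08, limma adjusted p = 0.00014). Nupr1 was at 8.43 and 10.1 against 4.35 and 4.53 TPM (0.91 ± 0.20, adjusted p = 0.0057), a call lost with a pseudocount of 0.1 (adjusted p = 0.0834). Atf4 itself (0.01), Trib3 (-0.00) and Asns (0.24) did not pass. Ddit4, an inhibitor of mTORC1, was at 13.8 and 16.9 against 24.9 and 27.6 TPM (-0.74, adjusted p = 0.041), a call lost without any 1 of the 4 libraries, each of which left 1 lower member. Of 29 cell cycle genes 11 were higher and 3 lower (37.9% and 10.3%). Among the latter was Cdkn1b, which encodes the inhibitor p27, at 11.6 and 12.8 against 24.2 and 21.5 TPM (-0.85 ± 0.09, limma adjusted p = 0.00010). The higher members were 7 without GKO replicate 2 or DKO replicate 2. Of 29 matrix and adhesion genes 11 were higher, among them Epcam at 24.7 and 25.8 against 11.4 and 9.72 TPM (1.19), and 11 lower, among them Itgb5 at 4.90 and 4.85 against 13.8 and 14.5 TPM (-1.37), and the lower members were 7 without DKO replicate 1.

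Of 78 cytosolic ribosomal protein genes 1 was higher and 22 lower, with a median of -0.15. This count rested on single libraries, as it was 3 without GKO replicate 1 and 8 without DKO replicate 2, and it was 10 with quantile normalization, under which 7 were higher. The summed TPM of the list overlapped, at 106900 and 118200 in GKO and 117600 and 131900 in DKO. The higher gene was the X-linked Rps4x (0.63). Of 6 tested Ly6 surface genes 0 were higher and 2 lower, among them Ly6a (Sca-1), at 11.5 and 9.91 TPM in GKO and 75.8 and 80.8 TPM in DKO (-2.76 ± 0.13, limma adjusted p = 3.2e-06).

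Beyond the lists, the largest rises in GKO among genes at 5 TPM or more included Smo, the transducer of Hedgehog signals, at 27.1 and 26.9 against 6.60 and 6.06 TPM (1.93 ± 0.06, limma adjusted p = 5.6e-07), Inhbb, an Activin subunit (11.4 and 11.6 against 2.62 and 2.02 TPM, 1.92), Padi2, a histone-citrullinating enzyme (12.5 and 13.2 against 2.47 and 2.63 TPM, 1.96), Mthfd2l of mitochondrial folate metabolism (5.90 and 5.76 against 0.750 and 0.764 TPM, 1.96) and Rac2, a small GTPase (6.12 and 5.88 against 0.883 and 0.847 TPM, 1.91). The X-linked 4930502E18Rik (2.75), Gm4779 (2.01) and Sh3bgrl (1.94) were among them. No overlap between the libraries was a condition for picking these genes and the falls below.

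The largest falls included Spint5 (0.760 and 0.385 against 12.8 and 14.8 TPM, -3.24), the adaptor Dok1 (3.23 and 3.05 against 21.9 and 22.0 TPM, -2.47), Gtsf1l (3.80 and 4.49 against 18.1 and 24.6 TPM, -2.11), the neurofilament gene Nefl (2.55 and 2.16 against 12.3 and 14.3 TPM, -2.09), the X-linked ubiquitin ligase adaptor Klhl13 (6.24 and 7.93 against 32.5 and 31.4 TPM, -2.03), Tmem47 (-1.73) and Cbs, which commits homocysteine to cysteine synthesis (6.63 and 6.88 against 24.1 and 25.7 TPM, -1.74). Ckb, the brain creatine kinase, was at 142 and 151 TPM in GKO, 456 and 539 TPM in DKO, with 187 and 174 TPM in naïve ESCs (-1.75 ± 0.20, limma adjusted p = 0.00018). Dok1 and Ckb were high in DKO beside the other lines in 2i, whereas Klhl13 and Gtsf1l, like Dnmt3l, were low in GKO beside them.

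Of the 323 genes with a called difference of at least 1, the naïve mean lay between the GKO and DKO means and nearer to DKO for 107, and between them and nearer to GKO for 112. It lay beyond DKO for 64 and beyond GKO for 40. GKO was thus the line farther from naïve ESCs for 171 of these genes and DKO for 152. Of the 175 genes higher in GKO, naïve ESCs were nearer to DKO for 103 and to GKO for 72, and of the 148 lower in GKO, nearer to DKO for 68 and to GKO for 80.

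Genes of some chromosomes differed together. The median difference of the genes of chromosome 6 was 0.17 above that of all other genes, with 236 of 555 higher and 66 lower, and that of chromosome 14 was 0.12 above. Chromosome 12 was shifted by -0.12, with 47 of 407 genes higher and 164 lower, and chromosome 19 by -0.11. Against naïve ESCs, chromosome 14 was shifted by 0.49 in GKO and 0.38 in DKO and chromosome 19 by -0.40 and -0.27, in the same direction in both lines. The shift of chromosome 6 belonged to GKO (0.15 against naïve ESCs, and -0.01 in DKO). Chromosome 12 was shifted by 0.15 in DKO and 0.03 in GKO against naïve ESCs. In naïve minus AKO it was shifted by -0.16, so that AKO, like DKO, was raised there. The X chromosome was shifted by -0.26 in DKO and by -0.06 in GKO against naïve ESCs. In GKO against DKO its shift was 0.08, with 171 of 435 genes higher and 89 lower. With the genes of the chromosomes shifted by over 0.1 left out, 4305 genes were called. Of the Y-linked genes, Ddx3y was at 8.11 and 7.83 TPM in GKO and 22.9 and 20.9 TPM in DKO (-1.35), Uty at 2.36 and 2.35 against 7.05 and 6.24 TPM (-1.18), and Uba1y at 2.88 and 2.73 against 0.557 and 0.574 TPM (1.28), while Eif2s3y, at 41.5 and 38.0 against 37.3 and 37.4 TPM, did not pass (0.08, limma adjusted p = 0.37). Whether these shifts reflect the number of chromosomes was not tested.

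**Figure D5:**
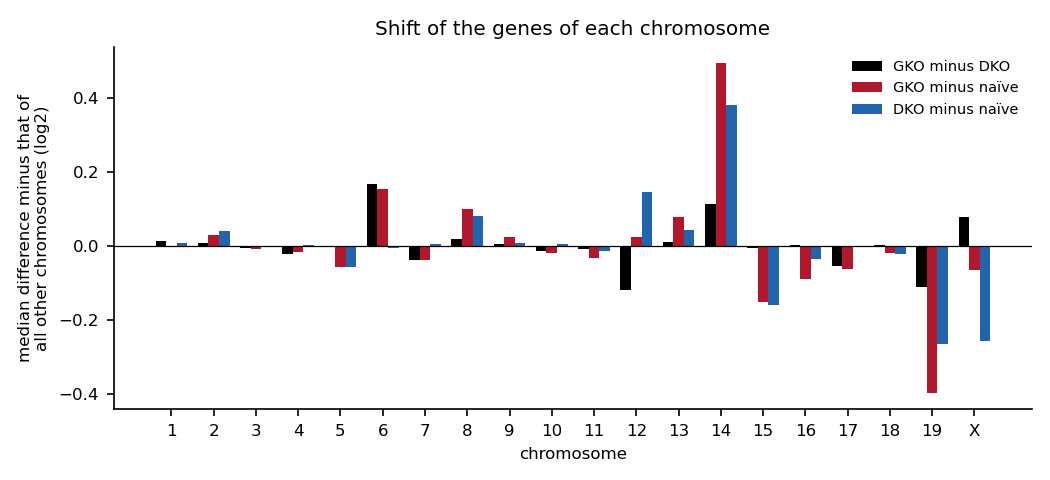
Median log2(TPM + 1) difference of the tested genes of each chromosome minus the median of all other tested genes (vertical axis), for GKO minus DKO (black), GKO minus naïve (red) and DKO minus naïve (blue), chromosome Y left out for its 4 genes. Chromosome 14 is raised and chromosome 19 lowered in both lines against naïve ESCs, and chromosome 6 is raised in GKO alone (0.15).

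GKO minus DKO was then set against naïve minus AKO, whose lines also differ in the targeting of AMPKα but have Gys1 intact. The 2 share no library, and each holds any other difference between its lines besides that targeting. The difference between them passed the threshold for 3116 genes (25.8%). For Prkaa1 itself GKO minus DKO was 2.04, naïve minus AKO 1.07 and their difference 0.97 ± 0.10 (limma adjusted p = 0.00029). The lines compared thus did not differ equally in the targeted mRNA. Insig1 was 0.76 higher in GKO than in DKO and -0.02 in naïve minus AKO, a difference of 0.78 ± 0.07 (adjusted p = 0.00019), Acadm had -0.56 and -0.04, a difference of -0.53 (adjusted p = 0.0012), and Dnmt3l -1.83 and 0.33, a difference of -2.16 ± 0.09 (adjusted p = 1.1e-05). Ldhb had values of opposite sign, 1.87 and -0.64, each past the threshold (adjusted p = 4.1e-06 and 0.039). Egr1 (-2.14 and -1.49) and Fos (-1.20 and -1.44) had the same sign in both and no called difference between the 2 values (adjusted p = 0.39 and 0.79). In the cholesterol list 11 members and in the fatty acid oxidation list 12 passed this test, beside 20 of 27 in the germline list. These lines also differ in Y-linked transcripts and in chromosome shifts, which cannot be told apart from the targeting of Gys1 or of AMPKα.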

How the data were processed

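Bulk RNA of 5 lines (naïve, AKO, GKO, DKO and primed) was sequenced, with 2 libraries per line, assigned to lines and replicates by their titles and genotypes. The authors trimmed the reads with Trim Galore 0.6.6, aligned them with STAR and estimated expression with RSEM 1.3.3. The paper's methods name GRCm39, whereas the processing notes also list GRCm38 and a human build. The deposited files hold the authors' TPM of 21853 protein-coding genes by symbol, 26 of them repeated and left out of lists. TPM keeps no depth, so no counting interval was derived, and RSEM divides reads between similar genes by estimation. TPM is relative, so a group of genes that rises lowers the others. The labels name a strand-specific kit, but no strand setting is given in the sources used here.

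From the TPM, log2(TPM + 1) was computed, and the 12060 genes reaching 1 TPM in 2 or more libraries entered 1 fit of the 10 libraries (limma 3.58.1, run in R 4.3.3) with a mean per line, an intensity trend and Benjamini-Hochberg adjustment over all tested genes. The threshold was an adjusted p of 0.05. All p-values called adjusted are from this fit or from the named alternative. An exact permutation of 2 libraries against 2 cannot go below a two-sided p of 0.333. Symbols were matched to chromosomes for 11736 tested genes, 151 by synonym, and to RefSeq promoters of GRCm38.p6 by symbol. Gene positions are those of GRCm39 with a later annotation than the authors used.

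The genes named were a list of 18 drawn up with the paper in view (Zic2, which is on it, is not in the paper's text), the 12 largest rises and 12 largest falls among called genes with a mean of at least 5 TPM in the higher line and no overlap, and up to 3 such members of each of 30 gene lists. Members named beside these were chosen for their place in a pathway after their values were seen, and a few genes are counted in the lists but not reported here by name. The comparison, the lists and the tests were chosen with earlier results of these data known. Alternatives were another pseudocount, no filter on low values or a mean of 5 TPM as the minimum, quantile and median-ratio scaling, no intensity trend, fewer libraries in the fit, a minimum difference, the replicate number as a block, each replicate left out and shifted chromosomes left out. Taking out the trend on length and GC content, leaving out chromosomes shifted by over 0.1 and leaving out naïve or AKO libraries were added after seeing the data. The procedure was tested on simulated data. Same-numbered libraries of GKO and DKO did not deviate together (correlation -0.00231 of their deviations over genes), so the numbers were not taken as pairs.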

Additional observations from a re-analysis of the deposited data

Results flagged for a closer look

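All results in this section were picked for 1 reason, a called difference in limma between GKO minus DKO and naïve minus AKO. Such a difference was found for 3116 genes, 79 of them among 105 tested genes named by rule. For 38 of the 79, GKO minus DKO and naïve minus AKO had opposite signs. Most genes named by rule were picked for a large called GKO minus DKO difference, which is part of the difference tested. That choice raised their share past the threshold. The naïve against AKO differences were small (median absolute value 0.0673 over tested genes), so opposite signs often rest on a value near 0. Positive values below mean that GKO minus DKO was more positive than naïve minus AKO. Groups of 2 libraries were too small to look for outlying libraries.

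Among AMPK genes, substrates and glycogen genes the value was 0.97 for Prkaa1, 1.01 for Prkag2, -0.41 for Prkab2, 0.42 for Mff, 0.90 for Gyg and -0.76 for Gaa. In sterol synthesis it was 0.78 for Insig1, 0.67 for Cyp51 and 0.43 for Fdps. In fatty acid synthesis it was 1.08 for Dgat2, -1.10 for Acss2 and 0.80 for Acsl4, and in oxidation and lipid droplets -0.84 for Acad9, -0.80 for Cpt1c and -1.02 for Plin3. Among glycolytic, mitochondrial and lysosomal genes it was 2.51 for Ldhb, 1.28 for Pdk3, 0.92 for Pfkfb1, 0.90 for Pink1, -0.43 for Twnk, -1.45 for Hexa, -0.77 for Ctsa and -0.76 for Tpp1.

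In the pluripotency lists the value was -0.63 for Tcl1, -0.36 for Tet2, 2.23 for Zic2, -2.16 for Dnmt3l, 0.99 for Zic5 and 0.97 for Otx2. Among lineage markers it was 0.90 for Cdx1, 0.82 for Col4a1, -0.94 for Fst, -0.63 for Sparc, 1.78 for Tfap2c, -1.21 for Tfap2a, 1.57 for Thy1, -0.61 for Vim, -0.27 for Fn1 and 0.81 for Nes. Among germline, methylation and imprinted genes it was 4.23 for Tex13b, -3.15 for Rpl39l, 1.46 for Tuba3a, 1.01 for Dnmt3a, 1.34 for Peg10, 1.34 for Cdkn1c and 0.53 for Ppp1r9a. The Y-linked Ddx3y and Uty gave -1.35 and -1.18, with both genes listed at 0 in naïve ESCs and AKO.

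In stress, p53 and signalling lists the value was 1.20 for Nupr1, 0.82 for Gars, -1.36 for Plk2, -0.72 for Trp53inp1, 0.93 for Gadd45a, -1.17 for Apcdd1, 0.91 for Smad3 and 0.39 for Smad4. Among surface, matrix, cell cycle and ribosomal genes it was -3.14 for Ly6a, -0.92 for Ly6g6e, -1.23 for Itgb5, 1.48 for Epcam, -0.72 for Cdkn1b, 0.76 for Cdkn2a and 0.67 for Rps4x. Among the other large rises it was 2.84 for 4930502E18Rik, 1.86 for Gm4779, 2.16 for Padi2, 2.10 for Mthfd2l, 2.07 for Sh3bgrl, 1.98 for Smo, 1.65 for Inhbb and 1.74 for Rac2. Among the other large falls it was -2.91 for Spint5, -2.36 for Dok1, -2.06 for Gtsf1l, -2.11 for Nefl, -2.09 for Klhl13, -1.74 for Ckb, -1.63 for Cbs and -1.40 for Tmem47.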

How the results depend on the processing

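The number of genes called between GKO and DKO was 3817 to 6442 under the alternatives that kept all replicates of both lines and set no minimum difference, and 3540 to 3943 when 1 of the 4 libraries was left out. The 3817 came from the filter at a mean of 5 TPM, which tested fewer genes than the reported 12060. That count therefore does not measure lost calls alone. The 6442 came from the fit without the primed libraries, which tested all 12060. Leaving out chromosomes also lowered the number of tested genes, and no filter on low values raised it. Genes called under both the reported and another setting never differed in direction. With a minimum difference of 1 there were 323, of which 175 were higher and 148 lower in GKO, and 349 genes in the difference between GKO minus DKO and naïve minus AKO. Leaving out 1 library gave 1784 to 1918 higher genes, 1756 to 2025 lower genes and 1944 to 2400 genes in that difference of differences, which could not be fitted with the 4 libraries of GKO and DKO alone. The lone library of a line is then assumed to vary like the others. The replicate number as a block gave 5034 calls, 4933 of them shared with the reported 5252, and the numbers do not mark pairs.

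Of the 96 called genes named by rule, 83 kept their call and direction under each alternative that tested them, the minimum difference of 1 aside, and 0 changed direction. Genes of a chromosome that was left out, or below a stricter minimum, were not tested there. Calls lost somewhere were those of Acacb, Cdkn2a, Ddit4, Eif1ad, Ets2, Etv1, Fos, Gys1, Nkx1-2, Nkx6-2, Nupr1, Rps27 and T. Genes near 0 that did not pass changed sign: Prkaa2 to -0.0196 with quantile normalization and to -0.00337 when 1 library was left out (range to 0.0613), Klf4 to -0.0124 (range to 0.0739), and Nr0b1 to -0.0585 (range to 0.165). The cause was not tested. Without the primed libraries Klf2 passed (0.25, limma adjusted p = 0.027). Depth cannot be read from TPM, so the precision of low genes is known only from the replicates, and genes below the filter were not tested.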

Other observations

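The X-linked partners of the Y-linked genes were read beside them, a choice made after the values were seen. Eif2s3x was at 205 and 231 TPM in GKO and 140 and 137 TPM in DKO (0.65 ± 0.09, limma adjusted p = 0.00045), and naïve ESCs lay between at 184 and 186 TPM. Kdm6a, the partner of Uty, was at 15.5 and 16.7 TPM in GKO and 21.4 and 21.5 TPM in DKO (-0.39 ± 0.07, limma adjusted p = 0.0029), with naïve ESCs at 25.7 and 25.1 TPM. Ddx3x was at 292 and 283 against 313 and 308 TPM and did not pass (-0.11, limma adjusted p = 0.33). The reads of a Y-linked gene and its X-linked partner are alike in part, so their division by RSEM is uncertain.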
